A study of Homo sapiens with 10 samples.

Results

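Amino acids enter and leave cells through membrane transporters, and 10 of the genes that encode them were followed here: SLC3A2, SLC7A1, SLC7A5, SLC7A6, SLC7A11, SLC1A4, SLC1A5, SLC38A1, SLC38A2 and SLC6A9. They were taken by name, as transporter genes of which many are described as targets of the transcription factor ATF4. All 10 were found by Ensembl identifier among the 20327 genes of the deposited tables. The cells were hTERT RPE-1, a telomerase-immortalised line of human retinal pigment epithelial origin, held for 48 h in 0.1% serum in every group. In the 30 min experiment, 3 libraries from cells given 200 µM merbarone for 30 min stood beside 3 from cells given the vehicle DMSO for the same time. In the 2 h experiment, 2 libraries from cells given 200 µM merbarone for 2 h stood beside 2 from untreated cells, which had received no vehicle. Merbarone is a catalytic inhibitor of topoisomerase II, the enzyme that passes DNA strands through each other and relieves supercoiling. The series was set up around supercoiling of DNA and the pausing of RNA polymerase II near promoters, and each comparison asks how RNA levels in treated cells differed from those in their own control.

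Several of these transporters work as exchangers. SLC7A5, SLC7A6 and SLC7A11 are light chains that carry the amino acids, and each is joined by a disulfide bond to the heavy chain SLC3A2 (CD98), which brings the complex to the cell surface. SLC38A2 and SLC1A5 bring in small neutral amino acids and glutamine, which the exchangers can trade for leucine and other large neutral ones. When cells lack amino acids or are otherwise stressed, ATF4 is translated more, binds C/EBP-ATF elements together with C/EBP proteins, and raises transcription of genes for amino acid uptake and synthesis.

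The deposited unit was RPKM, read numbers scaled to gene length and to library depth. For these genes the length was that of the whole gene with its introns. Whether reads in introns were counted is not given in the sources used here. Whole read numbers could be read back from the steps of the values. The libraries held 26633780 to 38225538 such reads in the 30 min experiment and 11956652 to 13691014 in the 2 h experiment. Libraries with the same number in the 2 groups of the 30 min experiment deviated together from their group means (correlations of 0.605 to 0.925 over 6500 genes), and the 2 libraries numbered 1 stood apart from the others. The labels do not say whether replicates came from separate cultures, so the p-values measure only the spread between these libraries, which may be technical. Of the 8 markers of retinal pigment epithelium, BEST1 reached 2.1 to 20.0 RPKM, PMEL 3.68 to 5.07, OTX2 2.35 to 4.61 and MITF 0.218 to 0.415. RPE65, TYR, RLBP1 and TYRP1 stayed at or below 0.0656, so several defining markers of the labelled tissue were near 0. The summed level of the 8 was 8.82 to 11.5 RPKM in the 30 min experiment and 25.1 to 29.0 in the 2 h experiment. That of 4 epithelial markers was 16.0 to 24.5 and 62.0 to 76.0, so the experiments differed in marker levels. VIM, a mesenchymal marker, stood at 560 to 1110 RPKM, and of the 4 epithelial markers KRT18 reached 14.1 to 69.4 and KRT8 1.8 to 6.64 RPKM, while CDH1 and EPCAM were at or below 0.00234. CD3E, CDH5, CRX and HBB were listed at 0 in every library. The summed level of 10 markers of blood, endothelial, neural and photoreceptor cells was 0.11 to 0.332 RPKM.

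The C/EBP-ATF element is shown first, because 5 of the members carried its core letters beside a RefSeq start. Both strands of the 300 bases from 250 before to 50 after each start were searched for TGATGNAA in RefSeq sequence (GRCh38.p14). Among all 35116 starts, 1270 held a match (3.62%). For the transporters it was 5 of 15 starts (33.3%), or 5 of the 9 genes with an entry, and for a list of 30 ATF4 targets 7 of 36 starts (19.4%). A match is only a string of letters, and binding was not measured in these data. The matches are given below in 30-base windows, read 5′ to 3′ along the strand of the gene, with the 8 matching letters in capitals. TTNCATCA is the same element read from the other strand.
SLC3A2, chr11:62881719-62881748, plus strand: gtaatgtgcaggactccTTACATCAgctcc
SLC7A1, chr13:29595663-29595692, minus strand: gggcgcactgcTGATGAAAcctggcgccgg
SLC1A4, chr2:64989381-64989410, plus strand: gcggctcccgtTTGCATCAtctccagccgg
SLC1A5, chr19:46784893-46784922, minus strand: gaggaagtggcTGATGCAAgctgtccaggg
SLC38A1, chr12:46266502-46266531, minus strand: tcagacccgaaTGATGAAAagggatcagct

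The match lay 38 to 45 bases after 1 of the 3 SLC3A2 starts and 8 to 15 bases after the SLC7A1 start. In SLC1A4 it ran across 1 of 2 starts (from -7 to 1), as it did in SLC38A1 (from -4 to 4), and in SLC1A5 it lay from -97 to -90 of 1 of 3. The windows of SLC7A5, SLC7A6, SLC38A2 and SLC6A9 held no match, and SLC7A11 is named only. SLC7A5, picked after its result was seen, rose strongly at 2 h without these letters in its window. SLC1A5 and SLC38A1 held a match and did not pass the main test at 2 h. Elements outside the windows, or with other letters, were not searched for. The 250 bases before the SLC7A5 start, with a GC content of 79.6%, are printed in lower case since nothing in them matched.
SLC7A5, chr16:87869508-87869757, minus strand: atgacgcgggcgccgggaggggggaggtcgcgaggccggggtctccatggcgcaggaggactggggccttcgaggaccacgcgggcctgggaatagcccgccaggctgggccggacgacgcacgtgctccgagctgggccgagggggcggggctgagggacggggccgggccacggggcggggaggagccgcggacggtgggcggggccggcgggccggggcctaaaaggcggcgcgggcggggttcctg

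After 2 h of merbarone, RNA of the heavy chain SLC3A2 rose 3.22-fold and that of the light chain SLC7A5 2.73-fold, and RNA of the arginine and lysine transporter SLC7A1 rose 1.5-fold. SLC1A4, a carrier of serine, alanine and cysteine, rose 1.59-fold by the read-based test. The other 6 genes did not pass the test in either direction. The 2 h control was untreated, so merbarone, any vehicle and the handling over 2 h cannot be told apart in these changes. After 30 min none of the 10 passed. Tests were limma fits on log2(RPKM + 1) over all genes averaging 1 RPKM or more, 2-sided, with Benjamini-Hochberg adjustment over all genes tested and a threshold of 0.05. On this scale the fold change of genes near 1 RPKM is understated, so limma's voom was also run on the recovered reads of genes averaging 10 reads or more. In bulk RNA, fewer cells with a transcript and less of it per cell cannot be told apart.

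At 2 h, 3 of the 7 members that passed the filter were called higher and 0 lower, against 13.1% of all 6620 genes called in either direction (5.98% higher, 7.1% lower). By voom, 4 of 10 were called higher and 0 lower, against 14.0% of 13440 genes (7.94% higher, 6.09% lower). Over all genes the calls split into 396 higher and 470 lower, into 494 and 293 once the libraries were scaled to a common median ratio, and into 1067 and 819 by voom. The members' calls were the same 3 under that scaling. The number of genes called moved between 337 and 2423 when 1 library was left out, with 2423 without untreated replicate 1, 1339 without untreated replicate 2, 337 without merbarone replicate 1 and 431 without merbarone replicate 2. By voom the same 4 fits called 4119, 2410, 535 and 638 genes. Without any filter on low values, 53 genes and no member were called. Treated and untreated libraries did not overlap for 6 of the 10 transporters, all of them higher with merbarone. Of all 13440 genes that averaged 10 reads or more, 28.8% were higher and 29.4% lower without overlap.

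**Figure D1:**
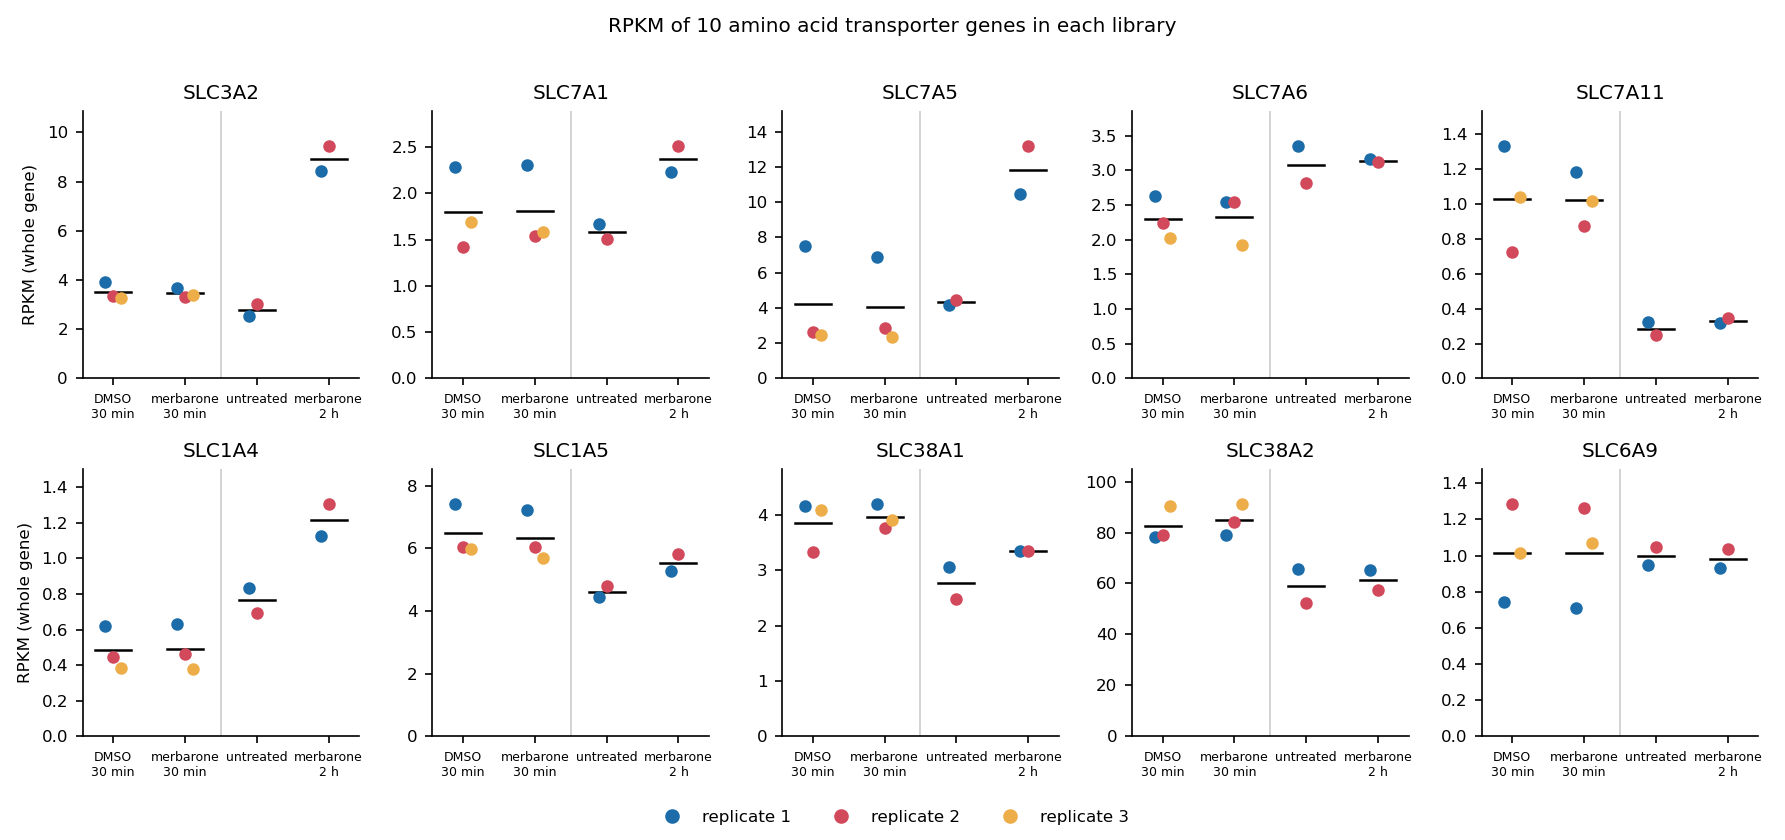
RPKM by whole-gene length (vertical axes, each from 0) of the 10 transporter genes in each of the 10 libraries. Points are libraries coloured by replicate number, bars are group means, and a grey line parts the 2 experiments. Both 2 h merbarone libraries lie above all other libraries for SLC3A2, SLC7A5 and SLC1A4, while SLC7A11 is higher in the 30 min experiment than in the 2 h experiment.

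SLC3A2 (ENSG00000168003, GRCh37 chr11:62623476-62656352, plus strand), the heavy chain, stood at 2.54 and 3.01 RPKM in the untreated libraries (1114 and 1181 reads). With merbarone for 2 h it stood at 8.42 and 9.45 RPKM (3787 and 4045 reads). Both treated libraries lay far above both controls and also above all 6 libraries of the 30 min experiment. The mean RPKM was 3.22 times that of the control. In limma the log2 fold change was 1.40 (SE 0.0999, 95% interval 1.17 to 1.62, adjusted p = 5.16e-05), and by voom 1.69 (SE 0.113, adjusted p = 1.23e-09). When any 1 library was left out, its voom log2 fold change stayed between 1.57 and 1.81. Such 2 h fits leave 1 library in a group, so their p-values, also for the genes below, lean on the spread of other genes. SLC3A2 missed its call when no filter on low values was used (limma adjusted p = 0.0516).

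SLC7A5 (ENSG00000103257, GRCh37 chr16:87863629-87903113, minus strand) encodes the light chain LAT1, which imports leucine and other large neutral amino acids in exchange for glutamine. Its level was 4.19 and 4.47 RPKM in untreated cells and 10.4 and 13.2 RPKM after 2 h of merbarone. The groups were well apart, and the treated mean was 2.73 times the control mean. The log2 fold change was 1.26 in limma (SE 0.116, 95% interval 0.996 to 1.52, adjusted p = 0.000211) and 1.44 by voom (adjusted p = 1.46e-08). The limma adjusted p was 0.0812 without the filter on low values. It was 0.12 when all 10 libraries shared 1 estimate of the spread, in which the uneven SLC7A5 levels of the 30 min experiment take part.

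The other light chains did not pass. SLC7A6 (ENSG00000103064, GRCh37 chr16:68298419-68335726, plus strand), which exchanges cationic for neutral amino acids, stood at 3.35 and 2.82 RPKM without and 3.16 and 3.12 with merbarone. Its treated values lay between the 2 control values, and the limma log2 fold change was 0.02 (95% interval -0.18 to 0.23, adjusted p = 0.881). The gene overlaps SLC7A6OS on the other strand, and whether the authors counted by strand is not given in the sources used here, so its reads are uncertain. SLC7A11 (ENSG00000151012, GRCh37 chr4:139085251-139163503, minus strand) encodes the cystine/glutamate exchanger xCT, which supplies cysteine for glutathione. It was low in the 2 h experiment, at 0.322 and 0.25 RPKM in untreated and 0.315 and 0.347 RPKM in treated libraries, or 234 to 354 reads. The groups overlapped, and voom gave a log2 fold change of 0.21 (95% interval -0.10 to 0.53, adjusted p = 0.363). It passed only without untreated replicate 1 (voom adjusted p = 0.0383).

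Since the light chains share the heavy chain, their levels were also set side by side on a scale meant for comparing genes. It was reads per kilobase of summed exon length, scaled to the reads of the library. The sum of SLC7A5, SLC7A6 and SLC7A11 was 53.8 and 52.9 in the untreated libraries and 105 and 128 after 2 h of merbarone. SLC3A2 on the same scale was 13.1 and 15.4 in untreated and 43.3 and 48.5 in treated libraries. The ratio of light to heavy chain RNA was therefore 4.11 and 3.42 in untreated cells and 2.42 and 2.63 with merbarone, and the groups did not overlap. Among single genes at 2 h, 28.8% were higher and 29.4% lower without overlap, so such a separation was common. SLC7A6, whose reads are uncertain, made up 30.6% and 26.2% of the untreated and 14.9% and 12.1% of the treated sum. With SLC7A6 left out, an alternative chosen after seeing the data, the ratio was 2.85 and 2.53 without and 2.06 and 2.31 with merbarone. SLC7A5 made up 64.5% and 70.0% of the light chain sum without and 82.7% and 85.7% with merbarone. The share of SLC7A11 was 4.86% and 3.84% without and 2.45% and 2.21% with it. In the 30 min experiment the ratio of the full light chain sum to SLC3A2 was 4.29, 2.23 and 2.3 with DMSO. With merbarone for 30 min it was 4.21, 2.56 and 2.12. Control libraries of the 2 experiments together thus spanned the ratios seen after 2 h of merbarone. The reads were divided by exon length here, while the deposited values used the length of the whole gene, and whether reads in introns were counted is not known. These ratios were not tested, they describe RNA and not protein, and SLC7A7, SLC7A8 and SLC7A10, light chains outside the 10, are not in the sum.

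**Figure D2:**
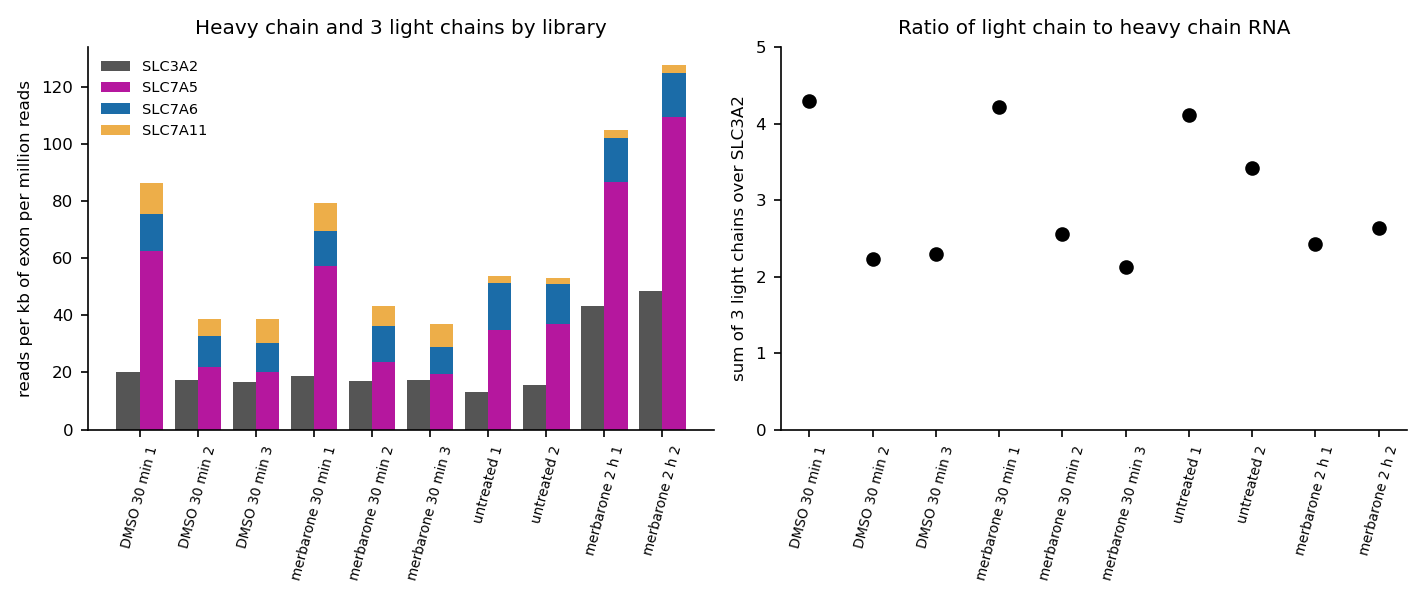
Left, stacked bars of SLC7A5, SLC7A6 and SLC7A11 beside bars of SLC3A2 in each library, in reads per kilobase of exon scaled to library depth; right, the ratio of the light chain sum to SLC3A2. In the 2 h experiment the ratio is 4.11 and 3.42 in untreated and 2.42 and 2.63 in merbarone libraries, and in the 30 min experiment it is above 4 only in the libraries numbered 1.

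SLC7A1 (ENSG00000139514, GRCh37 chr13:30083551-30169825, minus strand) encodes CAT1, which imports arginine, lysine and ornithine and needs no heavy chain. It stood at 1.67 and 1.50 RPKM in untreated and at 2.24 and 2.51 RPKM in treated libraries. The groups did not overlap, and the mean rose 1.5-fold. The log2 fold change was 0.38 in limma (SE 0.0785, 95% interval 0.21 to 0.56, adjusted p = 0.0156) and 0.58 by voom (SE 0.107, adjusted p = 0.00105). This rise was the least secure of the 3 limma calls: the limma adjusted p was 0.133 without merbarone replicate 2, 0.121 without the filter on low values and 0.143 with all 10 libraries in 1 fit. By voom it was 0.0691 without merbarone replicate 2.

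The next genes carry small neutral amino acids. SLC1A4 (ENSG00000115902, GRCh37 chr2:65215611-65250999, plus strand), or ASCT1, stood at 0.835 and 0.692 RPKM (394 and 293 reads) in untreated and 1.13 and 1.31 RPKM (547 and 603 reads) in treated libraries. The treated libraries were both higher, but its mean of 0.990 RPKM fell just under the limma filter. Voom on the reads gave a log2 fold change of 0.67 (SE 0.14, 95% interval 0.38 to 0.96, adjusted p = 0.00293), a ratio of means of 1.59. Without merbarone replicate 2 the voom adjusted p was 0.0891, and limma without the filter gave 0.15.

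SLC1A5 (ENSG00000105281, GRCh37 chr19:47278140-47291851, minus strand) encodes ASCT2, a glutamine carrier. It stood at 4.46 and 4.79 RPKM in untreated and 5.27 and 5.81 RPKM in treated libraries, a ratio of means of 1.2 with no overlap. The limma log2 fold change of 0.22 (95% interval 0.01 to 0.42) did not pass after adjustment (adjusted p = 0.14), nor did that of voom (0.26, adjusted p = 0.144). Without untreated replicate 2 the voom adjusted p was 0.0432. Its reads are uncertain too, since counting by strand is not stated.

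SLC38A1 (ENSG00000111371, GRCh37 chr12:46576846-46663800, minus strand), the sodium-coupled carrier SNAT1, gave a similar picture. Its levels were 3.05 and 2.49 RPKM in untreated and 3.34 and 3.35 RPKM in treated libraries. The treated libraries were both above the controls, by a ratio of means of 1.21, and the limma log2 fold change was 0.21 (95% interval -0.000716 to 0.42, adjusted p = 0.161). Without untreated replicate 1, the higher of the 2 controls, it passed (limma adjusted p = 0.00761). By voom the log2 fold change was 0.28 (adjusted p = 0.09), and without untreated replicate 1 it was 0.43 (adjusted p = 0.000135).

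SLC38A2 (ENSG00000134294, GRCh37 chr12:46751971-46766556, minus strand) encodes SNAT2, the carrier best known for its rise when cells are deprived of amino acids. Its levels were 65.7 and 52.4 RPKM in untreated and 65.5 and 57.5 RPKM in treated libraries. The treated values lay between the controls. The limma log2 fold change was 0.06 with a 95% interval of -0.25 to 0.37 (adjusted p = 0.785), and a rise of the size seen for SLC3A2 lies outside that interval. Without untreated replicate 1, again the higher control, voom gave 0.23 (adjusted p = 0.0325), and without untreated replicate 2 it gave -0.10 (adjusted p = 0.463).

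SLC6A9 (ENSG00000196517, GRCh37 chr1:44457172-44497139, minus strand) encodes the glycine transporter GLYT1. It stood at 0.948 and 1.05 RPKM in untreated and 0.930 and 1.04 RPKM in treated libraries. The values overlapped, and voom gave a log2 fold change of -0.02 (95% interval -0.29 to 0.25, adjusted p = 0.935). CCDC24 overlaps SLC6A9 on the other strand, so its reads are uncertain.

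**Figure D3:**
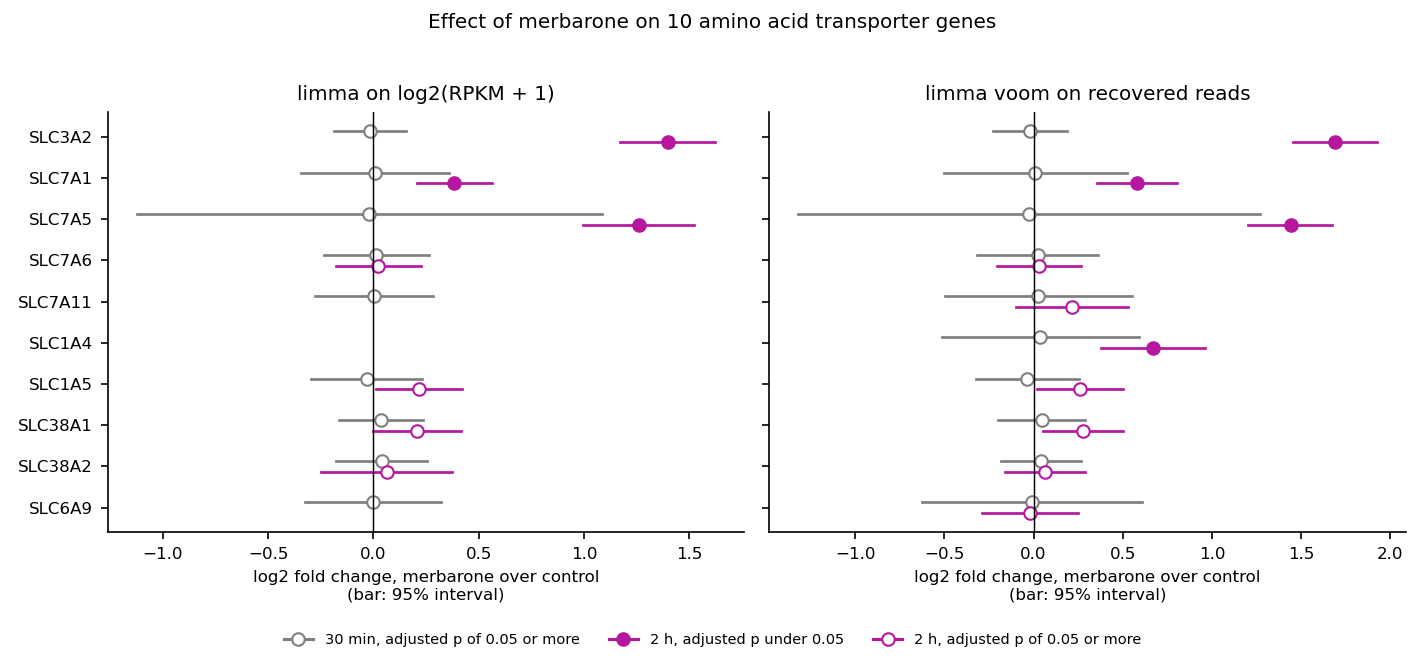
Log2 fold change of merbarone over control with its 95% interval for each transporter, by limma on log2(RPKM + 1) on the left and by voom on recovered reads on the right; grey is 30 min against DMSO, magenta is 2 h against untreated, and filled points passed an adjusted p of 0.05. SLC3A2, SLC7A5 and SLC7A1 are filled at 2 h on both sides and SLC1A4 on the right only, while no 30 min point is filled.

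At 30 min, 0 of the 9 members with a mean of at least 1 RPKM were called by limma, against 0.0154% of all genes (1 of 6500), and 0 of 10 by voom, against 0.00714% of 14012. The smallest unadjusted p among them was 0.684 in limma and 0.672 by voom. Over all genes 24 reached an unadjusted p under 0.05 in limma and 41 by voom. With the replicate number as a block it was 208 and 428. Fits without the block, here and in the contrast below, count the variation shared by same-numbered libraries as error. Their p-values at 30 min are therefore cautious, and a gene that did not pass them may still have changed. Log2 fold changes of the members in limma ran from -0.03 to 0.04. In all 10 genes the treated and DMSO libraries overlapped, where 1.28% of 14012 genes were higher and 1.12% lower without overlap. Ratios of treated to DMSO libraries with the same number ran from 0.889 to 1.21.

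The precision of this comparison differed between genes. For SLC3A2, with 3.91, 3.36 and 3.26 RPKM in DMSO and 3.66, 3.30 and 3.40 RPKM in merbarone libraries, the limma log2 fold change was -0.02 with a 95% interval of -0.19 to 0.15. For SLC7A5 the DMSO libraries gave 7.54, 2.62 and 2.44 RPKM and the merbarone libraries 6.89, 2.86 and 2.34 RPKM. The libraries numbered 1 were thus far above the others in both groups, and the interval widened to -1.13 to 1.08. With the replicate number as a block it was -0.14 to 0.10, and no member was called, against 0.123% of all genes. With both libraries numbered 1 left out, an alternative chosen after seeing the data, the SLC7A5 log2 fold change was 0.03 (SE 0.0886) and again no member was called. SLC7A1 and SLC1A4 had the same shape on a smaller scale, at 2.28, 1.43 and 1.69 and at 0.620, 0.447 and 0.386 RPKM in the DMSO libraries. For SLC38A2, with 78.1 to 90.4 RPKM in DMSO and 79.0 to 91.2 in merbarone libraries, the 95% interval was -0.18 to 0.26. For SLC7A11, with 0.724 to 1.33 and 0.877 to 1.19 RPKM, it was -0.28 to 0.28. SLC6A9 differed from SLC7A5 in shape, with its lowest values in the libraries numbered 1 (0.746 RPKM in DMSO and 0.711 in merbarone, beside 1.01 to 1.29 in the other 4).

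A contrast over all 10 libraries asked whether the effects of merbarone in the 2 experiments differed. The time of treatment, the kind of control and the experiment itself cannot be told apart in it. The effect was larger at 2 h for SLC3A2, with a difference of 1.41 on the log2 scale (SE 0.124, 95% interval 1.13 to 1.69, limma adjusted p = 0.000775). SLC3A2 was the only called member of the 8 tested, against 1.63% of 6558 genes called (1.27% higher at 2 h, 0.366% lower), and by voom the only 1 of 10, against 0.475% of 13900 (0.439% higher, 0.036% lower). The 66 genes that voom called became 5 without untreated replicate 1, 9 without untreated replicate 2 and 19 to 66 without any other library. SLC3A2 passed in each of these fits, with a voom adjusted p of at most 0.0355. Under the other alternatives in which it was tested, its limma and voom adjusted p lay between 5.37e-08 and 0.0105.

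For SLC7A5 the difference was 1.28 (SE 0.608, 95% interval -0.09 to 2.65, limma adjusted p = 0.342). With the replicate number as a block, the limma adjusted p was 0.000304, and with the 30 min libraries numbered 1 left out it was 0.00627. The block also brought SLC7A1 (difference 0.38, limma adjusted p = 0.396 without and 0.0171 with the block) and SLC1A5 (0.25, limma adjusted p = 0.485 without and 0.0319 with it) past the threshold. With the block 4 of 8 members were called, beside 19.1% of all genes. SLC1A4 gave 0.63 by voom (adjusted p = 0.518) and 0.65 by voom with the block (adjusted p = 0.00673). SLC7A6, SLC7A11, SLC38A1, SLC38A2 and SLC6A9 passed in none of these fits, which does not show that their effects were equal.

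Ranked by reads per kilobase of exon, SLC38A2 was highest in all 4 groups, at 186 ± 15.4 (SD, n = 3) with DMSO and 133 ± 21.2 (SD, n = 2) in untreated cells. In untreated cells SLC7A5 followed at 35.9 ± 1.64, then SLC38A1 at 24.1 ± 3.45, SLC1A5 at 19.0 and SLC7A1 at 17.8, whose libraries overlapped. Next came SLC7A6 at 15.2 and SLC3A2 at 14.3, which overlapped as well, then SLC6A9 at 7.61, SLC1A4 at 3.90 and SLC7A11 at 2.32. After 2 h of merbarone SLC3A2 moved up from rank 7 to rank 3, at 45.9 ± 3.72, behind SLC38A2 at 139 ± 12.7 and SLC7A5 at 97.9 ± 16.1, and no neighbours in the order overlapped. With DMSO the order from SLC7A5 (34.8 ± 24.0) through SLC38A1, SLC1A5 and SLC7A1 to SLC3A2 (18.0 ± 1.79) held no pair of neighbours without overlap. Whether reads in introns were counted is not known, so the ranks of genes with long introns are uncertain. Those of SLC7A6, SLC1A5 and SLC6A9, which overlap other genes, are uncertain too.

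**Figure D4:**
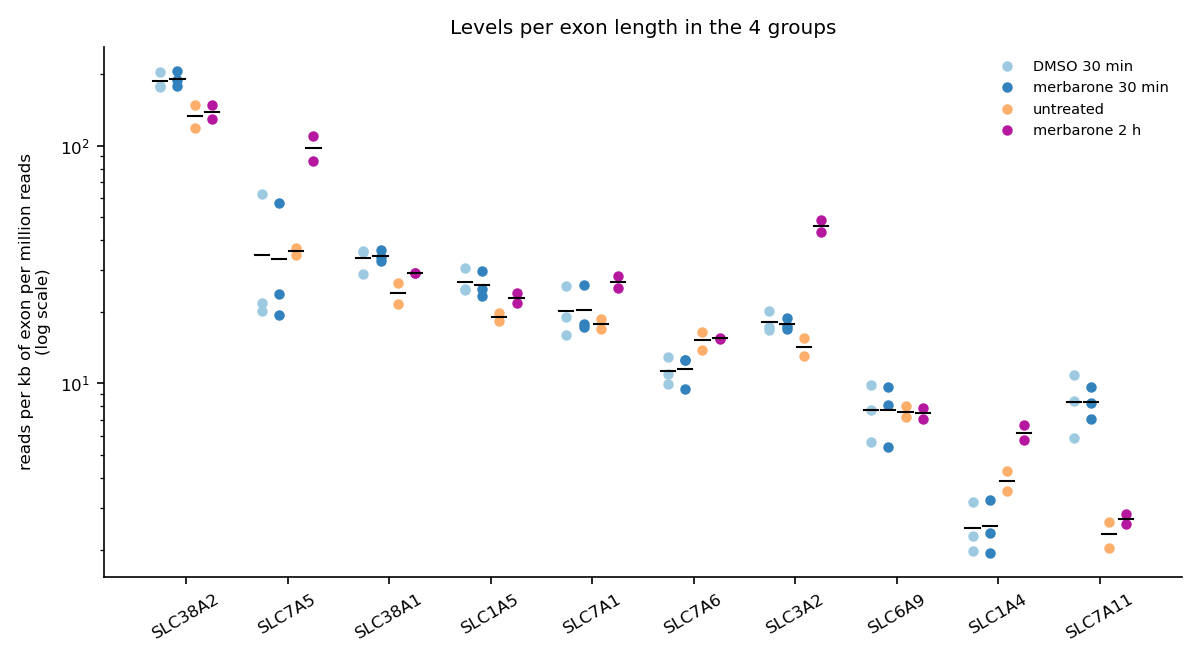
Level of each transporter in reads per kilobase of exon scaled to library depth (log axis), genes ordered by their mean in untreated cells; points are libraries of the 4 groups and bars are group means. SLC38A2 is highest in every group, SLC3A2 and SLC7A5 stand out in the 2 h merbarone libraries, and SLC7A11 is lowest in untreated cells.

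Some transporters differed between the experiments whatever the treatment. SLC7A11 stood at 0.724 to 1.33 RPKM in the 6 libraries of the 30 min experiment and at 0.25 to 0.347 RPKM in the 4 of the 2 h experiment. The DMSO mean was 3.61 times the untreated mean, a ratio of at least 3 being found in 1.43% of 13900 genes. SLC38A2 was also higher in all 6 (ratio 1.4), while SLC7A6 (ratio 0.745) and SLC1A4 (0.634) were lower in all 6. The libraries of the other 6 genes overlapped. Over 13900 genes, 16.4% were higher and 22.4% lower in the 30 min experiment without overlap, and the median ratio was 0.957. These ratios were not tested, and the vehicle, the time and the experiment cannot be told apart in them.

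Other amino acid transporters outside the 10 showed no call. Of a list of 24, 23 were in the tables. At 2 h only 3 averaged 1 RPKM or more and were tested by limma, with 0 called beside 13.1% of all genes. By voom 14 were tested with 0 called, beside 14.0% of all genes, and 1 of them had an unadjusted p under 0.05. That gene, SLC43A2, a carrier of large neutral amino acids named here after its value was seen, had a voom log2 fold change of -0.53 (95% interval -0.99 to -0.07, adjusted p = 0.118). It was low, at a mean of 0.113 RPKM in untreated and 0.0778 in treated libraries. The median voom log2 fold change of the list was -0.08, beside 0.27 for the 10 transporters and 0.000272 for all genes. With so few genes tested, most of them low, these counts do not show that the list differed from the 10.

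A list of 30 genes, ATF4 itself and genes widely described as its targets, had most of its members higher at 2 h. CHAC1, DDIT4, ATF3 and SESN2 on this list had been named in earlier results of these data. The counts are therefore a description and not an independent test. Limma called 18 of the 25 tested higher and 0 lower, beside 5.98% higher and 7.1% lower of all genes. The median log2 fold change was 0.77, beside 0.22 for the transporters and -0.05 for all genes. By voom it was 22 of 29 higher and 0 lower, beside 7.94% and 6.09% of all genes, with a median of 0.95. CHAC1, which degrades glutathione, was at 0.401 and 0.494 RPKM in untreated and 23.7 and 29.7 RPKM in treated libraries. Its limma log2 fold change was 4.25 (SE 0.114, adjusted p = 1.3e-07). DDIT4, an inhibitor of mTORC1 signalling, went from 25.8 and 32.0 to 214 and 257 RPKM (limma log2 fold change 2.98, SE 0.143, adjusted p = 7.48e-06). GADD45A, a stress gene of growth arrest, and SESN2, a leucine sensor that restrains mTORC1, rose by 2.25 (SE 0.133) and 2.05 (SE 0.122) on the log2 scale, with a limma adjusted p of 1.74e-05 for each. In none of the 4 did treated and untreated libraries overlap.

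ATF4 RNA itself, named here after its value was seen, was 45.6 and 53.3 RPKM in untreated and 60.0 and 66.1 RPKM in treated libraries, with a log2 fold change of 0.35 in limma (adjusted p = 0.0962) and 0.35 by voom (adjusted p = 0.0357). At 30 min 0 of 19 genes of the ATF4 list were called by limma and 0 of 30 by voom. ATF3, a stress-induced transcription factor named here after its value was seen, was the exception in size. It stood at 0.0487, 0.0517 and 0.0490 RPKM with DMSO and 0.359, 0.460 and 0.159 RPKM with merbarone for 30 min, without overlap. Its voom log2 fold change was 2.58 (SE 0.552, adjusted p = 1), and with the replicate block it passed (2.64, voom adjusted p = 0.000989). In the contrast of the effects, limma called 12 of 23 higher at 2 h, beside 1.27% of all genes, and voom 11 of 30, beside 0.439%. Among the cell type markers at 2 h, limma called FN1, which rose by 1.13 on the log2 scale (adjusted p = 0.000412), and OTX2, which fell by 0.32 on the log2 scale (adjusted p = 0.0349). Voom called these and COL1A1, at 0.59 on the log2 scale (adjusted p = 0.00953), for which limma gave 0.48 (adjusted p = 0.0573). The mesenchymal marker VIM was lower without overlap, at an RPKM ratio of 0.91, and did not pass (limma adjusted p = 0.418). The pigment epithelium markers MITF, at a ratio of 1.21 (voom adjusted p = 0.134), and RPE65, at 1.92 with no more than 19 reads in a library (voom adjusted p = 0.22), were higher without overlap and did not pass either. The summed levels were 808 to 820 RPKM without and 835 to 849 with merbarone for the 4 mesenchymal markers, 62.0 to 68.4 and 70.3 to 76.0 for the 4 epithelial ones, and 28.1 to 29.0 and 25.1 to 28.9 for the 8 of pigment epithelium. Their part in the transporter results was not tested.

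**Figure D5:**
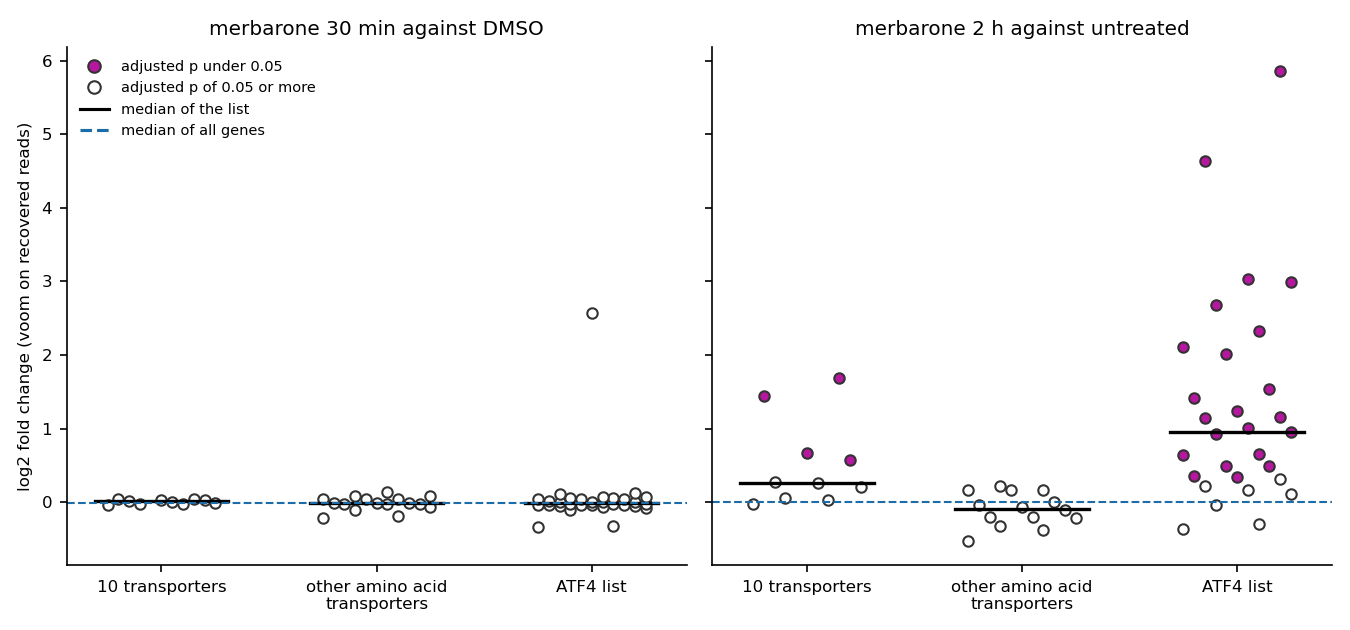
Voom log2 fold changes (vertical axis) at 30 min on the left and at 2 h on the right for the 10 transporters, the other amino acid transporters and the ATF4 list; each point is a gene, filled where the adjusted p was under 0.05, with a bar at the median of the list and a dashed line at the median of all genes. At 2 h, 4 of 10 transporters, 0 of 14 other transporters and 22 of 29 ATF4 list genes are filled, and at 30 min none is; the open point near 2.58 at 30 min is ATF3.

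Likeness to SLC3A2 was taken across the 10 libraries on log2(RPKM + 1) centred on the mean of each experiment. Closest among 6558 genes were PPP1R3B (Pearson r = 0.9946), ITPRIP (r = 0.9935) and POLR3C (r = 0.9912). Their limma log2 fold changes at 2 h were 0.62, 1.05 and 0.38. The 2 merbarone libraries of the 2 h experiment stood apart from the other 8 for SLC3A2, and the points share their experiment and its sequencing depth, so the correlations are given as a description.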

How the data were processed

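RNA was sequenced from polyadenylated RNA of 10 libraries (TruSeq Stranded mRNA, 150 ng of total RNA, per the labels' protocols). The authors deposited RPKM values per Ensembl gene, 1 table per library, without log transformation, per the file headers. The submitters' processing notes name Bowtie 1.2.0, DESeq2, edgeR, deepTools 2.4.1, hg19 and GRCh37, with no role for each. RPKM divides by the reads of a library, so a rise of abundant genes lowers the others.

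Whole reads were recovered from the RPKM steps for all 17680 genes with a value above 0 (100% whole within 0.001 reads). The lengths this gave lay within 1% of the whole gene span for 74.9% of 17234 genes (GRCh37, GENCODE 44) and for all 10 transporters. Intervals cover the spread between libraries only. Symbols were given to 19174 of the 20327 genes. SLC38A3 and PECAM1 are not analysed here.

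Tests used limma 3.58.1 in R 4.3.3 (lmFit, eBayes with trend) on log2(RPKM + 1), with no replicate block, per experiment, and as a contrast over all libraries. Alternatives were a pseudocount of 0.1, no filter, a minimum mean of 5 RPKM, scaling to a common median ratio, quantile normalization, the replicate number as a block, voom on recovered reads with and without the block, all 10 libraries in 1 fit and leaving out each library. Leaving out both 30 min libraries numbered 1 was added after seeing the data. Both methods were run on simulated libraries drawn independently of each other. These held no variation shared by replicate number, so they do not show how the tests behave on the 30 min libraries. Replicate numbers come from the labels. At 30 min, same-numbered libraries correlated at 0.925, 0.646 and 0.605 in their deviations from the group means, and others at -0.716 to 0.365, so the numbers were taken to pair the samples there. Of 8 pairs of replicates, none held identical values, with a chi-square per degree of freedom of 4.0 to 61.1. Python 3.11.15, NumPy 2.4.6, pandas 2.3.3 and matplotlib 3.10.9 were used.

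All 10 members are named. From the other lists, up to 4 called genes with the largest change and no overlap of groups are named, and the 3 genes most correlated with SLC3A2. The members and lists were chosen with earlier results of these data known.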

Additional observations from a re-analysis of the deposited data

Results flagged for a closer look

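The effect of merbarone on SLC3A2 differed between the 2 h and the 30 min experiments by 1.41 on the log2 scale (limma contrast over all 10 libraries, adjusted p = 0.000775), which is a test of the difference itself. The RPKM of both 2 h treated libraries (8.42 and 9.45) lay above both untreated ones, while the 30 min groups overlapped. With all 10 libraries and no replicate block, no other member passed this test. Without the 30 min libraries numbered 1, SLC7A5 passed as well (limma adjusted p = 0.00627). Time, kind of control and experiment cannot be told apart in it.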

How the results depend on the processing

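Of 421 recomputed values of single transporters, 392 kept their side of the threshold and moved by less than their standard error or stayed called, 8 lost and 14 gained the call, 7 moved without a call, and 0 reversed as called values. For genes called at 30 min (1), no filter gave 0, a minimum mean of 5 RPKM, scaling to a common median ratio, quantile normalization and all 10 libraries in 1 fit gave 2 each, the replicate block 8, voom with the block 13, and leaving out 1 library 0 to 2. At 2 h (866), no filter gave 53, a mean of at least 5 RPKM 397, the replicate block 2129, voom 1886, voom with the block 3487, and leaving out 1 library 337 to 2423. For the difference (107), no filter gave 361, a mean of at least 5 RPKM 36, the block 1255, voom 66, voom with the block 2100, and leaving out 1 library 40 to 86. Transporters called at 2 h (3) were 0 with no filter, 5 with the block, 6 with voom and the block, 1 with all libraries in 1 fit and 2 to 4 leaving out 1 library. For the difference (1) they were 0 of 3 tested at a mean of at least 5 RPKM, a filter SLC3A2 did not pass, 4 with the block, 5 with voom and the block, and 2 without the 30 min libraries numbered 1. The cause of the other changes was not tested. At 2 h the deviations of same-numbered libraries correlated at 0.3. With 2 libraries per group both pairs give the same value by construction, so whether the numbers pair the 2 h libraries is not known. At 2 h the block brought SLC1A5 (limma adjusted p = 0.048) and SLC38A1 (0.04) past the threshold, in a fit with 1 residual degree of freedom. A lone library left in a group was assumed to vary like the other group. Depths of 11956652 to 13691014 reads and 2 libraries per group limit the 2 h comparison most for SLC7A11 and SLC1A4, with 234 to 603 reads.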
